A study of Rattus norvegicus with 12 samples.

Results

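Expression of 6 genes of the endoplasmic reticulum (ER) and oxidative stress responses was followed through 12 rat retina libraries. They were picked by identifier, by a rule that uses no measured value, though with earlier results of these data known: Hspa5 (ENSRNOG00000018294), Xbp1 (ENSRNOG00000010298), Ddit3 (ENSRNOG00000006789), Trib3 (ENSRNOG00000007319), Asns (ENSRNOG00000007546) and Hmox1 (ENSRNOG00000014117). All 6 were among the 32883 rows of the table, and all 6 were among the 15916 genes kept for testing. The table lists Ensembl identifiers only, and the annotation at hand holds 0 Ensembl identifiers, so the pairing of symbol and identifier is that given with the choice of the genes and was not checked.

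Retinas were taken from wild-type rats of the Sprague Dawley strain on postnatal day 18. Sham retinas and retinas with oxygen-induced retinopathy (OIR), a model in which changes in oxygen disturb the growth of the retinal vessels, each received either a scrambled RNA or a mimic of the microRNA miR-143. The 4 groups of 3 libraries were thus sham with scrambled RNA, sham with mimic, OIR with scrambled RNA and OIR with mimic. Every animal was of the same strain, age and genotype, every group carried an injected RNA, and an uninjected group was not analysed here. The labels' protocol speaks of miRNA libraries read as single 50-base reads, while the table lists genes. Defining markers of retinal cell types could not be matched to identifiers, so the labelled tissue was not checked against them.

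When unfolded proteins collect in the ER, sensors in its membrane act. IRE1 splices the Xbp1 mRNA into the form that encodes an active transcription factor, ATF6 moves to the nucleus after cleavage and raises chaperones such as Hspa5, and PERK slows translation while favouring that of ATF4. ATF4 also answers amino acid shortage and other stresses, and its targets include Ddit3, Trib3 and Asns. Hmox1 belongs mainly to another branch, in which the transcription factor NRF2 answers oxidants. In the retina these responses are known from photoreceptor degeneration, ischaemia and diabetic retinopathy.

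Of the 6 genes, 5 had an entry in the RefSeq promoter table (build GRCr8, a later assembly than the rn6 of the submitters' processing notes), and Hmox1 had none. Sequences are shown because the ER stress element, the letters CCAAT and CCACG spaced by 9 bases on either strand, occurs in both genes of the ER chaperone and Xbp1 branch. The element lay at -43 to -25 from the start of Hspa5 and at -65 to -47 from the start of Xbp1. All positions are counted from the starts annotated in RefSeq, which were not checked. It was found in 22 of the 33469 promoter windows of 300 bases, or 0.0657%. The windows of Ddit3, Trib3 and Asns held no match to these exact letters. That of Ddit3 holds a stretch, cgtgccgctttctgattgg, that differs from the reverse-strand form in 1 letter. The search did not count such near matches, and their share over all windows was not worked out. Trib3 held 1 match, on the reverse strand at -21 to -14, to an ATF4 composite element written TGATGNAA, which 3.98% of the windows hold. The antioxidant response element TGACNNNGC, found on either strand in 12.1% of windows, had no match in the 5 windows. The 3 motifs were searched separately, and no match overlapped another. A match says only that the letters are there. The 250 bases before the start are printed 5′ to 3′ on the strand of the gene, with the matched element in capitals. The intervals are chr3:38452766-38453015 on the plus strand for Hspa5, chr14:84604373-84604622 on the plus strand for Xbp1 and chr3:161275534-161275783 on the minus strand for Trib3.
Hspa5: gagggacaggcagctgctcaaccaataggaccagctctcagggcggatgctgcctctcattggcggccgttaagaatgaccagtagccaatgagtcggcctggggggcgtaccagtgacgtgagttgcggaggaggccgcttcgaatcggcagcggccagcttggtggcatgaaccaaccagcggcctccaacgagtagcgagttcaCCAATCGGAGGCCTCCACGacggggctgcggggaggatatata
Xbp1: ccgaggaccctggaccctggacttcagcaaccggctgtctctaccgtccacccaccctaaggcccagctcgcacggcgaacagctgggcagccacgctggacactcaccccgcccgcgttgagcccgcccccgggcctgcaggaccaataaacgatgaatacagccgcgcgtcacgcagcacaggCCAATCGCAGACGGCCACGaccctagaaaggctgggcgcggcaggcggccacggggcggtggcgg
Trib3: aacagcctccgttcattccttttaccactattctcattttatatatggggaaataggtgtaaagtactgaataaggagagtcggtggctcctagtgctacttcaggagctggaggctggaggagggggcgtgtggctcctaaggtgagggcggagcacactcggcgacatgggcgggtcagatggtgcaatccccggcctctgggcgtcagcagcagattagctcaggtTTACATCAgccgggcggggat

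The injected mimic carries the name of miR-143, whose mature arms in RefSeq are given here with the seed, bases 2 to 8, in capitals. The labels do not say which arm was used.
rno-miR-143-3p: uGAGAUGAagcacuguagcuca
rno-miR-143-5p: gGUGCAGUgcugcaucucugg

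Values are TPM (reads divided by gene length and scaled to the same total in every library), so levels can be compared between genes. The libraries held 10535334 to 13174503 reads on genes, a depth worked out from the steps between TPM values. The labels do not say whether each library is its own animal, and sham scrambled replicate 1 and sham mimic replicate 1 share a number in their column names. P-values therefore measure the spread between these libraries. Column numbers differ between sham and OIR, and the letter R or L goes with scrambled RNA or mimic, so whatever these mark cannot be told apart from the condition or the injection.

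Over the 12 libraries Hspa5 was the most abundant of the 6 genes, with a mean of 330.9 TPM, above 97.5% of the genes kept. Xbp1 followed at 141.0 TPM and Ddit3 at 109.2 TPM, above 92.0% and 89.0% of genes. Asns stood at 52.0 TPM, Hmox1 at 39.4 TPM and Trib3 at 6.92 TPM, against a median of 20.4 TPM over all genes kept. The order of Hspa5, Xbp1, Ddit3 and Asns held in each of the 12 libraries. Hmox1 had no fixed place: its lowest library, at 3.54 TPM, lay below the lowest Trib3 value of 5.27 TPM, and its highest, at 136.5 TPM, lay above every Ddit3 value.

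Tests were made by limma on log2(TPM + 1) over all 15916 genes, with p-values adjusted over all of them and a threshold of 0.05. With both injections averaged, 1 of the 6 genes was called higher in OIR, Hmox1, where 17.5% of all genes were. Ddit3 was the 1 gene called lower, where 12.8% of all genes were. Among retinas given scrambled RNA, Hmox1 was called higher, against 6.79% of all genes, and none of the 6 was called lower, against 3.91%. In the mimic groups Hmox1 was again called higher, against 9.76% of all genes, and Ddit3 and Trib3 were called lower, against 9.77%. Hspa5 and Xbp1 were called in no comparison. The plot of levels by library shows these patterns before any test.

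**Figure D1:**
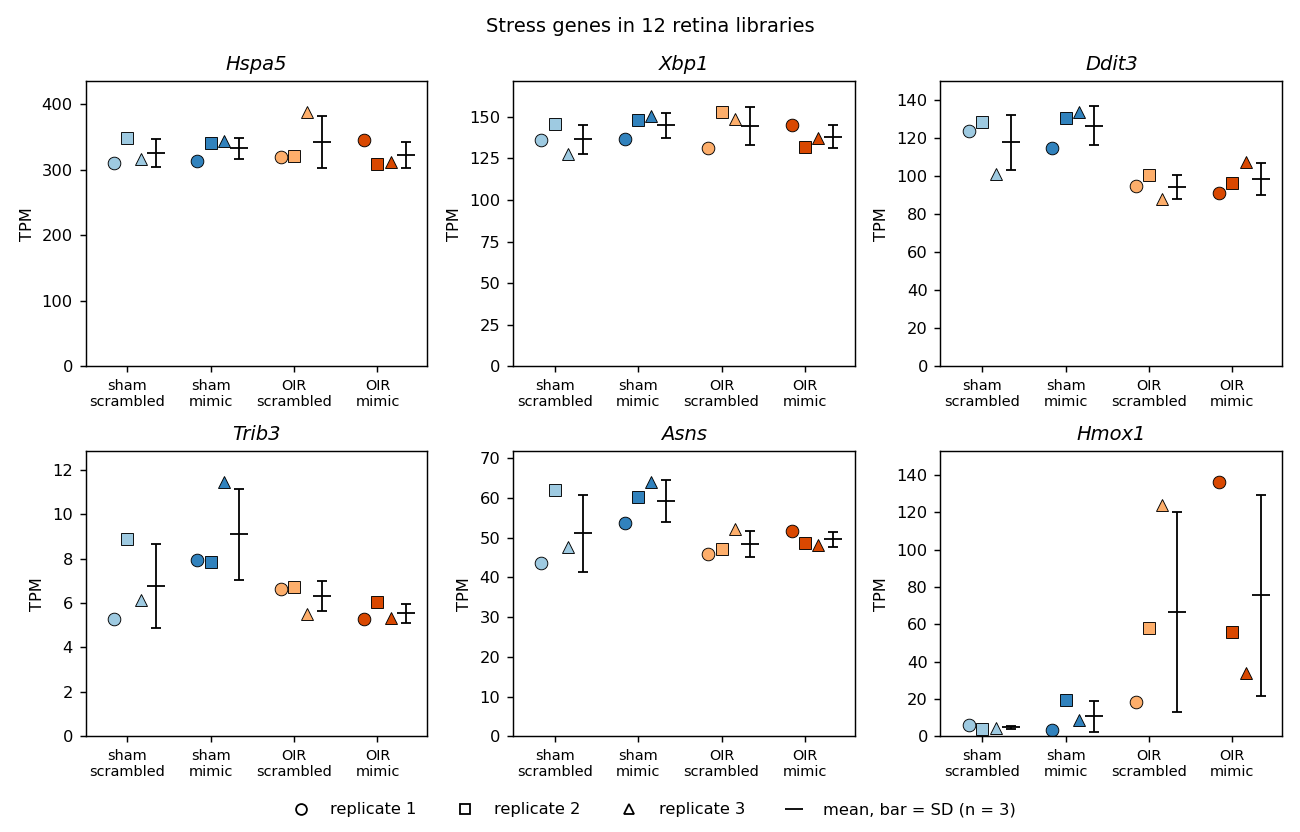
TPM of each of the 6 genes (vertical axes, each starting at 0) in the 12 libraries by group (horizontal axes); symbols give the replicate, and the bar beside them the mean and SD of 3 libraries. Hmox1 lies between 3.54 and 19.7 TPM in sham and between 18.1 and 136.5 TPM in OIR, and Hspa5 stays between 309.2 and 389.0 TPM in every library.

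Hspa5 encodes BiP, the main Hsp70 chaperone of the ER lumen and a standard readout of the unfolded protein response. In sham retinas with scrambled RNA it stood at 309.8, 349.3 and 317.3 TPM, and in sham with the mimic at 313.9, 340.8 and 343.6 TPM. OIR retinas had 318.9, 321.1 and 389.0 TPM with scrambled RNA and 345.4, 309.2 and 312.3 TPM with the mimic. The groups overlapped, with 1 OIR library above all sham libraries (scrambled replicate 3) and 1 just below them (mimic replicate 2). Averaged over both injections the log2 difference was 0.01 (SE 0.060, limma adjusted p 0.900), with a 95% interval from 0.920-fold to 1.11-fold on the TPM + 1 scale. Each value rests on 4034 to 5635 reads, so counting error is small here. The sign of so small a difference is not fixed: it was -0.03 after median-ratio scaling and -0.03 without OIR scrambled replicate 3.

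Xbp1, the transcription factor of the IRE1 branch, was at 136.1, 145.5 and 127.9 TPM in sham with scrambled RNA and at 136.4, 148.3 and 150.2 TPM in sham with the mimic. In OIR it was at 131.4, 153.1 and 148.6 TPM with scrambled RNA and at 145.3, 131.8 and 137.4 TPM with the mimic. The 4 groups overlapped, and the means of all sham and all OIR libraries were 140.7 ± 8.66 and 141.3 ± 9.08 TPM (SD, n = 6 each). The averaged log2 difference was 0.01 (SE 0.053, limma adjusted p 0.954), with an interval from 0.927-fold to 1.09-fold, and its sign also turned with the scaling (-0.03 after median-ratio scaling). Its spread within groups, 0.090 on the log2 scale, stood at percentile 16.6 of the genes kept, against a median of 0.164. Gene totals do not separate spliced from unspliced Xbp1 mRNA, so these values say nothing of that step.

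Ddit3 encodes CHOP, a transcription factor known for its part in cell death under prolonged stress. It fell in OIR. In whole retina, fewer cells of a type and less RNA per cell cannot be told apart. Sham libraries had 123.4, 128.5 and 101.2 TPM with scrambled RNA and 114.8, 130.4 and 133.8 TPM with the mimic. OIR libraries had 94.5, 100.3 and 87.8 TPM with scrambled RNA and 91.2, 96.5 and 107.5 TPM with the mimic. Within each injection every OIR library lay below every sham library. Over both, 5 of 6 OIR libraries lay below the lowest sham library, and the remaining one, mimic replicate 3, lay among the sham values.

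The means of Ddit3 were 122.0 ± 12.1 TPM in sham and 96.3 ± 6.98 TPM in OIR (SD, n = 6 each). The geometric mean fell by 20.9% (averaged log2 difference -0.34, SE 0.071, limma adjusted p 0.00409). The log2 difference was -0.36 with the mimic (SE 0.0999, limma adjusted p 0.0270). With scrambled RNA it was -0.31 (SE 0.0999, limma adjusted p 0.0684), which missed the threshold. That the 2 injections differ was not shown: the interaction of Ddit3 was -0.05 (SE 0.141, limma adjusted p 1.00). With scrambled RNA Ddit3 was called without sham scrambled replicate 3 (-0.42, adjusted p 0.0268) and under median-ratio scaling, quantile normalisation and arrayWeights. With the mimic the call was lost without sham mimic replicate 2 or 3 or OIR mimic replicate 1 or 2, and without the 2 libraries lacking condition tags (adjusted p 0.0639 to 0.09999). The averaged call was kept in all 23 alternatives run, with log2 differences from -0.39 to -0.28. The smallest change came without the 2 libraries lacking condition tags (-0.28, limma adjusted p 0.0237). These 2, OIR scrambled replicate 3 and OIR mimic replicate 1, had the lowest Ddit3 values.

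Trib3 encodes a pseudokinase that ATF4 and CHOP induce. Its levels were the lowest of the 6 in 8 of 12 libraries: 5.29, 8.90 and 6.16 TPM in sham with scrambled RNA, and 7.95, 7.84 and 11.5 TPM in sham with the mimic. In OIR it was at 6.65, 6.72 and 5.52 TPM with scrambled RNA and at 5.27, 6.03 and 5.30 TPM with the mimic. With scrambled RNA the OIR values lay inside the sham range. With the mimic all 3 OIR libraries lay below all 3 sham libraries.

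In the mimic groups Trib3 fell in OIR from 9.08 ± 2.06 to 5.53 ± 0.428 TPM (SD, n = 3 each), a log2 difference of -0.61 (SE 0.184, limma adjusted p 0.0386). With scrambled RNA the difference was -0.07 (SE 0.184, limma adjusted p 0.855), and its sign turned in 3 of 24 alternatives. The interaction was -0.54 (SE 0.261, unadjusted p 0.0619, limma adjusted p 1.00), so a difference between the injections was not shown. Averaged over both, the log2 difference of -0.34 (SE 0.130, limma adjusted p 0.0704) missed the threshold, and it passed in 4 of 23 alternatives, among them the fit without sham scrambled replicate 1 (-0.41, adjusted p 0.0383). The call with the mimic was lost in 11 of 24 alternatives, 8 of them fits without 1 library, namely each of the 3 sham mimic and 3 OIR mimic replicates and OIR scrambled replicates 1 and 2, with an adjusted p up to 0.153 without sham mimic replicate 3. Trib3 values rest on 52 to 142 reads, a counting error of 8.39% to 13.9%. The coefficient of variation over 6 libraries was 11.1% in OIR, below the counting error of each OIR library (11.5% to 13.9%), and 27.4% in sham.

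Asns encodes asparagine synthetase, a classic target of the amino acid response. Sham retinas had 43.6, 62.1 and 47.6 TPM with scrambled RNA and 53.6, 60.1 and 64.1 TPM with the mimic. OIR retinas had 45.9, 47.1 and 52.1 TPM with scrambled RNA and 51.6, 48.7 and 48.1 TPM with the mimic. With the mimic every OIR library lay below every sham library, while with scrambled RNA the OIR values lay inside the sham range. Even so no call was made: the log2 difference was -0.25 with the mimic (SE 0.116, limma adjusted p 0.158), -0.06 with scrambled RNA (adjusted p 0.782) and -0.16 averaged over both (adjusted p 0.174). The difference with the mimic was called under arrayWeights, which weights libraries by their spread (-0.33, adjusted p 0.0437). The averaged difference was called in 2 of 23 alternatives, with arrayWeights (log2 difference -0.30, adjusted p 0.00994) and without the 2 sham libraries that share a number (-0.24, adjusted p 0.0443). The OIR libraries were close together, with a coefficient of variation of 5.04% against 15.1% in sham (n = 6 each), a difference that was not tested.

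Hmox1 encodes haem oxygenase 1, which opens the haem ring and releases iron, carbon monoxide and biliverdin. It rose in OIR and was the gene of the 6 with the widest range. In sham retinas with scrambled RNA it stood at 5.90, 3.96 and 4.39 TPM, and in sham with the mimic at 3.54, 19.7 and 8.88 TPM. OIR retinas had 18.1, 57.8 and 123.9 TPM with scrambled RNA and 136.5, 55.8 and 34.1 TPM with the mimic. Within each injection all OIR libraries lay above all sham libraries. Over both, 5 of 6 OIR libraries lay above the highest sham library, and OIR scrambled replicate 1 lay just below sham mimic replicate 2.

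The geometric mean of Hmox1 was 6.32 TPM in sham and 56.9 TPM in OIR (n = 6 each), 9.002-fold higher. The averaged log2 difference was 2.96 (SE 0.520, limma adjusted p 0.00190), at percentile 99.96 of the genes kept, with an interval from 3.50-fold to 17.4-fold on the TPM + 1 scale. With scrambled RNA it was 3.19 (SE 0.735, limma adjusted p 0.0225) and with the mimic 2.74 (SE 0.735, limma adjusted p 0.0261). The averaged call was kept in all 23 alternatives, with log2 differences from 2.38 to 3.32. Within one injection, where 3 libraries stand against 3, the call was lost in 8 of 24 alternatives with scrambled RNA and in 7 of 24 with the mimic, among them limma voom on recovered reads (adjusted p 0.156 and 0.104) and fits without 1 library. These were sham scrambled replicates 1, 2 and 3 and OIR scrambled replicates 2 and 3 for scrambled RNA (adjusted p 0.0574 to 0.0767). For the mimic they were sham mimic replicates 1 and 3 and OIR mimic replicates 1 and 2 (0.0608 to 0.0898). Over all fits without 1 library the difference ranged from 2.56 to 3.91 with scrambled RNA, and it was lowest with the mimic, at 2.18, without sham mimic replicate 1.

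Hmox1 varied widely between libraries in 3 of the 4 groups. The highest library of a group stood 5.56-fold above the lowest in sham with the mimic, 6.84-fold in OIR with scrambled RNA and 4.00-fold in OIR with the mimic. Sham with scrambled RNA spanned 1.49-fold, with a coefficient of variation of 21.5% against a counting error of 14.6% to 16.7%. Over all libraries counting error was 2.92% to 17.96%, on 31 to 1173 reads. The spread within groups was 1.01 on the log2 scale, above that of 98.6% of the genes kept. The 2 OIR libraries with the highest values, OIR scrambled replicate 3 and OIR mimic replicate 1, are also the 2 whose records lack the tags for disease and transfection, and their groups come from their titles. The same 2 libraries had the highest OIR values of Hspa5 and Asns and the lowest of Ddit3. Without these 2 the averaged log2 difference of Hmox1 was 2.38, and its difference with scrambled RNA was 2.56 (limma adjusted p 0.0522). Markers of blood, macrophages or other cell types could not be matched in the table, so their part in these values was not tested.

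**Figure D2:**
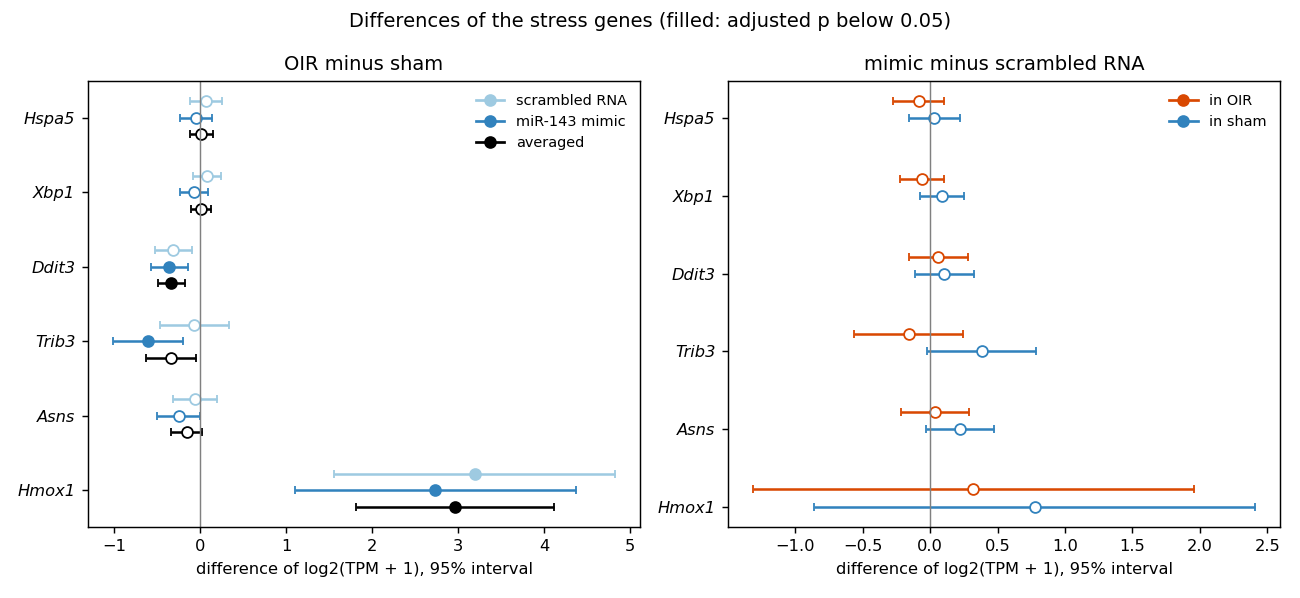
Differences of log2(TPM + 1) with 95% intervals (horizontal axes) for each gene (vertical axes), OIR minus sham on the left and mimic minus scrambled RNA on the right; filled points passed an adjusted p of 0.05 in limma. Hmox1 lies at 2.74 to 3.19 on the left, the intervals of Hspa5 and Xbp1 include 0, and no point on the right is filled.

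Non-overlap of the libraries gives a view without the fit. With scrambled RNA 1 of the 6 genes had all OIR libraries above all sham libraries (Hmox1), where 19.7% of all genes did, and 1 had them all below (Ddit3), where 12.9% did. With the mimic Hmox1 was again the 1 gene above, against 20.1% of all genes, and 3 genes lay below, Ddit3, Trib3 and Asns, against 16% of all genes. Over both injections 0 of the 6 genes were free of overlap, against 9.78% of all genes above and 7.89% below. The exact permutation test of 6 against 6 libraries (two-sided, unadjusted, 6 genes tested, smallest possible p 0.00216) gave p = 0.00433 for Hmox1 and 0.00433 for Ddit3. It gave p = 0.0476 for Trib3, 0.128 for Asns, 0.803 for Hspa5 and 0.922 for Xbp1 in the same exact permutation test.

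Ratios within a library do not depend on the scaling between libraries. Ddit3 stood at 0.370 ± 0.0281 of Hspa5 in sham and at 0.292 ± 0.0418 in OIR (SD, n = 6 each), with 5 of 6 OIR libraries below the lowest sham library. Xbp1 stood at 0.428 ± 0.0145 of Hspa5 in sham and at 0.426 ± 0.0315 in OIR. The ratio of Hmox1 to Hspa5 was 0.0232 ± 0.0178 in sham and 0.207 ± 0.128 in OIR, with 5 of 6 OIR libraries above the highest sham library. For Trib3 the ratio was 0.0239 ± 0.00569 in sham and 0.0180 ± 0.00290 in OIR, and for Asns 0.167 ± 0.0178 and 0.148 ± 0.00837, both with overlap.

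Mimic and scrambled RNA were compared within OIR and within sham, and 0 of the 6 genes were called in either, as was 0% of all genes (limma, smallest adjusted p 0.199 in OIR and 0.252 in sham). Without adjustment 1491 genes in OIR and 333 in sham had a p below 0.05, none of the 6 among them, and limma voom on recovered reads also called 0. In OIR 25 genes were called without OIR mimic replicate 1 and 28 without both libraries lacking tags, none of the 6 among them. The interaction likewise called 0 of the 6 and 0% of all genes (limma, 589 genes at an unadjusted p below 0.05). Trib3 came closest in sham, with a log2 difference of 0.38 (SE 0.184, unadjusted p 0.0616, limma adjusted p 1.00). Asns followed in sham with 0.22 (SE 0.116, unadjusted p 0.0788). Intervals show how much could have been seen: in OIR the mimic difference of Ddit3 lay between -0.16 and 0.28 on the log2 scale, and that of Hspa5 between -0.27 and 0.10. That of Hmox1 in OIR lay between -1.31 and 1.95, so that changes of 2-fold in either direction lie within the interval.

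How the genes moved with each other was examined within sham and within OIR, since the conditions lie apart. Each has 15 pairs over 6 libraries, which take both injections together, since 3 libraries per injection are too few for a value of their own. In sham all 15 Pearson correlations of log2(TPM + 1) were positive, from 0.20 to 0.94 with a median of 0.67. By rank that of Trib3 and Hmox1 was negative (rho = -0.09). How often pairs of other genes were positive was not worked out, in sham or in OIR. All 6 genes had higher means in sham with the mimic than with scrambled RNA (log2 differences 0.03 to 0.78), and this was not removed from the correlations. Depth was not removed either. Among sham libraries, sham scrambled replicate 1 had the fewest reads on genes (11061394) and sham mimic replicate 3 the most (13174503). The former was also lowest in sham for Trib3 and Asns and the latter highest for both, and a link with depth was not tested. Xbp1 and Ddit3 had r = 0.94 (exact permutation p = 0.00278, adjusted over 15 pairs 0.0208) and rho = 0.94 (exact permutation p = 0.0167, adjusted 0.125). Without the 2 libraries farthest from the Xbp1 median r was 0.85. Trib3 and Asns had r = 0.93 (exact permutation p = 0.00278, adjusted 0.0208) and rho = 0.94 (exact permutation p = 0.0167, adjusted 0.125), and r = 0.91 without the 2 farthest libraries. These 2 pairs passed by Pearson and not by rank, and the 2 sham libraries that share a number may not be independent.

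In OIR 7 of 15 correlations were positive, with a median of -0.09, and 0 passed after adjustment. The highest was that of Asns and Hmox1, r = 0.92 (exact permutation p = 0.0222, adjusted 0.307) with rho = 0.77 (exact permutation p = 0.103, adjusted 0.438). It was 0.70 without the 2 libraries farthest from the Asns median, OIR scrambled replicate 3 and OIR mimic replicate 1. The 2 pairs that passed in sham had negative values in OIR. Xbp1 and Ddit3 had r = -0.21 (exact permutation p = 0.681, adjusted 0.785) and rho = -0.09 (exact permutation p = 0.919, adjusted 0.985), with r = -0.67 without the 2 farthest libraries. Trib3 and Asns had r = -0.77 (exact permutation p = 0.0819, adjusted 0.307) and rho = -0.66 (exact permutation p = 0.175, adjusted 0.438). Their r was -0.29 without OIR scrambled replicates 1 and 2, the libraries farthest from the Trib3 median. Leaving these out narrows the range of Trib3, so whether the OIR value rests on them cannot be told. A difference between the conditions in these correlations was not tested.

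**Figure D3:**
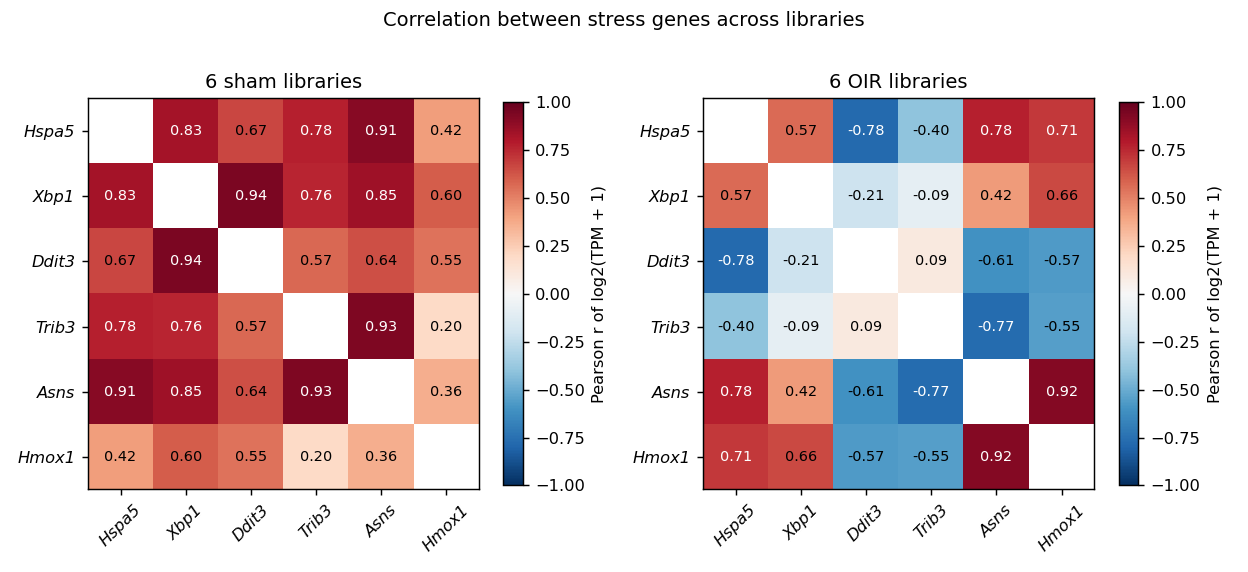
Pearson r of log2(TPM + 1) for each pair of the 6 genes over 6 sham libraries (left) and 6 OIR libraries (right), on a colour scale from -1 to 1. All 15 sham values are positive, from 0.20 to 0.94, and the OIR values run from -0.78 to 0.92.

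Over all 12 libraries, as a description that takes in the difference between conditions, the 15915 other genes kept were ranked by their r with each gene. Asns was number 10 of them for Trib3 (r = 0.80), and Trib3 was number 12 for Asns. For Xbp1 the nearest of the 6 was Hspa5, number 57 (r = 0.65), and for Hspa5 it was Xbp1, number 192. For Ddit3 it was Trib3, number 887 (r = 0.69). For Hmox1 the highest r among the 6 was with Hspa5, number 5176 (r = 0.37), while its r was -0.70 with Ddit3 and -0.51 with Trib3, both with lower mean levels in OIR. The genes in between cannot be named, since the table does not pair identifiers with symbols.

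**Figure D4:**
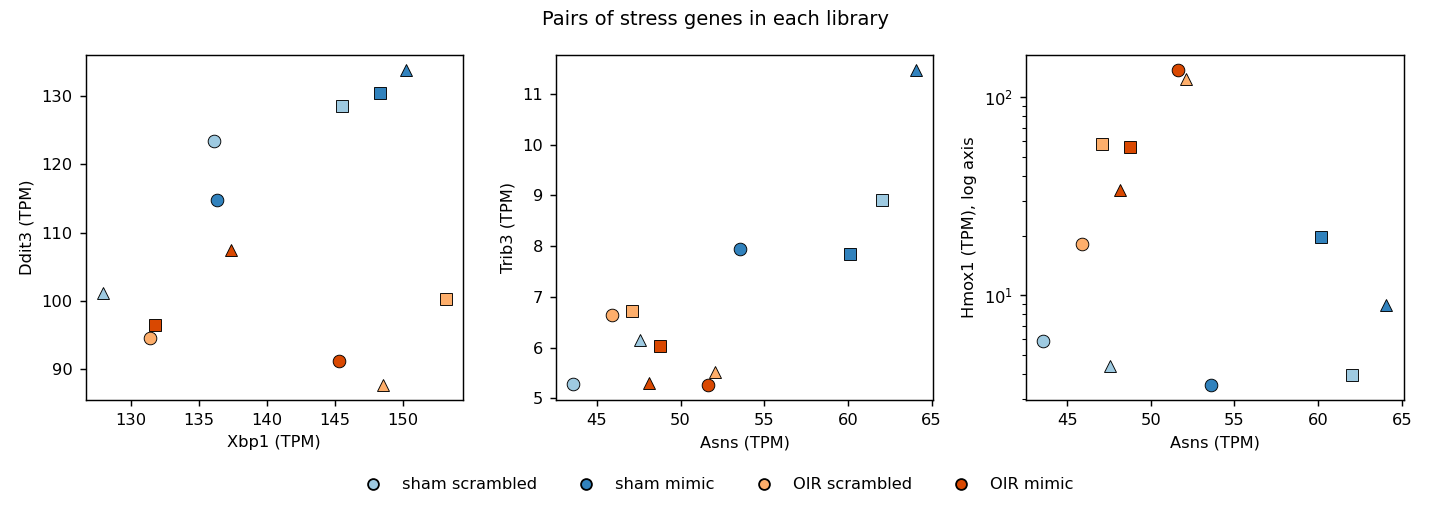
Level of 2 genes in each of the 12 libraries in TPM (both axes, with a log axis for Hmox1), for Xbp1 with Ddit3, Asns with Trib3 and Asns with Hmox1; colour gives the group and the symbol the replicate. In the left panel 5 of 6 OIR libraries lie below every sham library for Ddit3, at Xbp1 levels of 131.4 to 153.1 TPM.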

How the data were processed

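TPM values of all libraries stand in 1 table that the authors deposited, with a row per Ensembl gene and 12 columns, which lines above the table pair with the sample titles; 0 columns were left unassigned. The submitters' processing notes list the build rn6 and, with no roles, TopHat, Cufflinks, Cuffdiff and FastQC. Which tool counted reads, and on which annotation, is not stated there. Whole reads were recovered for 22310 of 22310 rows above 0 (tolerance 0.02) as the smallest whole numbers that match the TPM values, and served for depth, counting error and 1 alternative.

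Genes with at least 1 TPM in at least 3 libraries were kept. A limma model (version 3.58.1, R 4.3.3) on log2(TPM + 1) held the 4 group means and left 8 residual degrees of freedom, and eBayes used its robust and trend settings. P-values were two-sided and adjusted by Benjamini-Hochberg over all genes in each comparison. This scale understates changes of low genes. Recovery and fit were also run on simulated data, and the outcome is not given here. In the simulated fit each gene had the same spread in every group, unlike Hmox1 in these libraries. The genes, lists and tests were chosen with earlier results of these data known. All 6 genes are described whatever their result. 4 planned lists of further pathway genes and the cell type markers were not run, since symbols could not be matched to identifiers.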

Additional observations from a re-analysis of the deposited data

Results flagged for a closer look

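Among the 6 sham libraries, sham mimic replicate 2 stood apart for Hmox1 at 19.7 TPM, on 191 reads, with the next highest sham library at 8.88 TPM. The gap was 0.669 of the range of the 6 values, above the critical value of 0.625 (Dixon, 95%), on the TPM scale. On the log2(TPM + 1) scale used for the tests the gap was 0.487 of the range, below that value. Chance alone sets a library apart in about 1 in 20 such groups, and 12 sets of 6 libraries were looked at. Without this library the log2 difference between OIR and sham with the mimic was 3.28 (limma adjusted p 0.0241). With both injections averaged it was 3.23 (limma adjusted p 0.00217).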

How the results depend on the processing

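The settings tried were a pseudocount of 0.1 or 0.5, all genes or only those at 5 TPM, median-ratio scaling, quantile normalisation, arrayWeights, only the 2 groups compared, each library left out, the 2 untagged libraries left out, the replicate block and voom on recovered reads. Leaving out the 2 libraries that share a column number was added after seeing the data. Over 36 differences of the 6 genes, 772 of 852 values kept direction and side of the threshold, 31 lost a call, 11 gained one and 38 changed sign. No called difference changed sign, and no value that changed sign passed the threshold (smallest limma adjusted p among them 0.317).

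The sign changes, as log2 differences, were as follows. With arrayWeights, Hspa5 had -0.0390 for OIR with scrambled RNA, -0.0634 averaged and -0.00539 for the mimic in sham, Xbp1 had -0.0397 averaged and Ddit3 0.0306 for the interaction. Median-ratio scaling gave -0.0253 for Hspa5 and -0.0324 for Xbp1 averaged, and quantile normalisation -0.00175 for Xbp1. Without the untagged libraries the values were -0.0225 (Hspa5, scrambled), 0.00958 (Trib3, scrambled), -0.0598 (Hspa5, averaged) and -0.0242 (Xbp1, averaged). Without the libraries sharing a number they were -0.0257 (Hspa5) and -0.0171 (Xbp1), averaged. With 1 library left out, OIR with scrambled RNA ranged from -0.0225 to 0.123 for Hspa5, -0.210 to 0.118 for Trib3 and -0.167 to 0.0833 for Asns. Averaged, Hspa5 ranged from -0.0345 to 0.0382 and Xbp1 from -0.0177 to 0.0379. For the mimic in OIR the ranges were -0.136 to 0.00851 (Hspa5), -0.00432 to 0.113 (Ddit3), -0.000891 to 0.0881 (Asns) and -0.400 to 0.954 (Hmox1). For the mimic in sham Hspa5 ranged from -0.00198 to 0.0844, and for the interaction Ddit3 from -0.112 to 0.0585 and Hmox1 from -1.18 to 0.178. The causes were not tested.

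Counts of called genes depended on libraries. OIR with scrambled RNA gave 1704 genes, 3322 with arrayWeights, 926 without the untagged libraries, 742 without the libraries sharing a number and 805 to 2181 with 1 library left out. Beyond 1.5 times the count fell to 914, 805 and 1088 without sham scrambled replicate 1, 2 or 3 and to 847 without OIR scrambled replicate 3. OIR with the mimic gave 3108, 5270 with arrayWeights and 2041 to 3275 with 1 left out (2041 without sham mimic replicate 3). The mimic in OIR gave 0, 1 with a pseudocount of 0.1, no filter, arrayWeights or 2 groups, 28 without the untagged libraries and 0 to 25 with 1 left out (25 without OIR mimic replicate 1). In sham it gave 0, 2 with a pseudocount of 0.1, 1 with 0.5 or arrayWeights, and 0 to 1 with 1 left out. The interaction gave 0, 2 with a pseudocount of 0.1, 1 with no filter and 0 to 1 with 1 left out. Of the 2-way split of calls, OIR with scrambled RNA had 1081 higher and 623 lower genes, 977 and 981 after median-ratio scaling and 955 and 1178 after quantile normalisation. Averaged it had 2783 and 2030, and 2360 and 2535 or 2325 and 2757 after these scalings.

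With the replicate number as a block, 1799, 3300 and 5026 genes were called for OIR with scrambled RNA, OIR with mimic and their average. The block ended 1 call of the 6 genes, Hmox1 with the mimic (log2 difference 2.74, adjusted p 0.0540). The labels do not say what the replicate number marks. Of 18 pairs with the same number, 5 had a correlation of deviations above 0.1 (range -0.0481 to 0.258). Not every library correlated best with its own number. The highest value, 0.258, was that of sham scrambled replicate 1 and sham mimic replicate 1, the pair that also shares a column number. Counting error adds to the spread of Trib3 and, in sham, Hmox1, which rest on as few as 52 and 31 reads. It reached 13.9% for Trib3 and 17.96% for Hmox1. The coefficient of variation over the 6 sham libraries was larger, 27.4% for Trib3 and 79.9% for Hmox1. That of Trib3 over the 6 OIR libraries was 11.1%.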
